A study of Mus musculus with 24 samples.

Results

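Core and primed pluripotency genes were followed through the differentiation of mouse embryonic stem cells (mESCs) into neural stem cells (NSCs). The group was defined by name as 10 genes: Pou5f1, Fgf4, Fgf5, Utf1, Sall4, Dppa2, Dppa4, Dppa5a, Lin28b and Trim71. Each was found as an entry of its own among the 23119 genes listed, and all 10 were among the 12105 genes with a mean of at least 1 FPKM that were tested. FPKM is the number of sequenced fragments scaled by transcript length and by the size of the library, so levels of different genes are compared here per length.

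RNA-seq was available for 24 libraries in 8 groups of 3 replicates, from wild-type (WT) and SmcHD1-mutant (KO) cells at each of 4 stages. WT cells were JB4/EI7HZ2, a female F1-hybrid mESC line from a JF1 mother and a B6 father, and KO cells were a line made from it with CRISPR–Cas9 against SmcHD1, a protein that keeps the inactive X chromosome silent. As mESCs both genotypes grew in serum with LIF and the 2i inhibitors, which act on GSK3 and on MEK, a kinase of the ERK pathway. The mESC and NSC media held G418 and Zeocin, drugs that keep both X chromosomes in the cells. Day 7 and day 9 cells came from a common course, in which cells adapted to serum-free 2i/LIF were turned for 2 days into epiblast-like cells with activin and FGF2 and then grown as embryoid bodies. NSCs were made by a separate protocol and expanded with FGF2 and EGF, so they are not a later time point of the embryoid bodies. Each genotype is given as 1 cell line, so the mutation and differences between the lines cannot be told apart.

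Pluripotent cells rest on a circuit of transcription factors centred on OCT4, the product of Pou5f1, that holds their own genes on and differentiation genes off. In the embryo the naive epiblast before implantation passes through a formative state to the primed epiblast, and FGF4, which the pluripotent cells secrete, drives that passage through ERK signalling. Fgf5 is the classic gene of the primed epiblast, whereas Lin28b and Trim71 are genes of early development whose transcripts are known targets of the let-7 microRNAs.

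Smchd1 itself was between 13.0 and 26.4 FPKM in the 12 WT libraries and between 1.82 and 4.40 in the 12 KO libraries, and the genotypes did not overlap at any stage. The number of reads per library, worked out from the steps between low values, differed by at most 1.42 times, and the sum of FPKM by at most 1.59 times. The 8 neural markers summed to 91.3 to 154 FPKM in the mESC libraries and to 3780 to 6760 FPKM in the NSC libraries, and all 8 were higher in NSCs than in mESCs of WT cells (36.9% of all tested genes were) and of KO cells (37.7%). Embryoid bodies hold several kinds of cell, and in bulk RNA fewer cells of a type and less RNA per cell cannot be told apart.

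The 10 genes fell into those that were highest in mESCs and those that peaked later. In WT cells, 8 were lower at day 9 than in mESCs (35.1% of all tested genes were), and Fgf5 and Lin28b were higher (36.4% were). At day 7, 7 were lower (30.2% of tested genes) and Fgf5 and Lin28b were higher (29.1%), while Trim71 missed the threshold. NSCs had 9 lower than mESCs (38.3% of tested genes) and none higher (36.9%). Fgf5 was the exception there, being listed at 0 in both groups. Differences were tested with limma on log2(FPKM + 1) and called at a Benjamini-Hochberg adjusted p under 0.05 over all tested genes. The median of the 10 differences from WT mESCs was -1.74 for day 7, -3.70 for day 9 and -6.41 for NSCs on this log2 scale, against -0.02, 0.01 and -0.01 over all tested genes. These 3 comparisons share the WT mESC libraries. The libraries of the groups compared did not overlap for 7 of the 10 genes by day 7 (61.5% of tested genes), all 10 by day 9 (74.4%) and 9 for NSCs (69.0%).

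KO cells were compared with their own mESCs in the same way. At day 7, 7 of the 10 genes were lower (31.8% of tested genes) and 2 were higher (29.5%). By day 9 the count was 8 lower (35.6%) and 2 higher (35.7%), and NSCs had 9 lower (38.2%) and none higher (37.7%). Libraries did not overlap for 9 genes at day 7 (69.8% of tested genes), for 10 at day 9 (77.0%) and for 9 in NSCs (79.0%). The genes called were those called in WT cells except at day 7, where Trim71 passed the threshold in KO cells and Sall4 did not. Between day 7 and day 9, 9 genes were lower in WT cells (15.3% of tested genes) and 9 in KO cells (13.4%), with Lin28b the exception in both genotypes. Of these calls, that of Trim71 in WT cells was lost without WT day 7 replicate 1 (limma, adjusted p = 0.0613). In KO cells, Dppa5a was lost with 0.1 FPKM added in place of 1 (limma, adjusted p = 0.268) and without KO day 7 replicate 1 or 2 or KO day 9 replicate 2 or 3, and Trim71 with 0.1 FPKM added (limma, adjusted p = 0.0813), with libraries scaled to the same sum of FPKM (limma, adjusted p = 0.0731) and without KO day 7 replicate 1 or any KO day 9 library. The days were apart for all 10 genes in WT cells (54.2% of tested genes) and for 9 in KO cells (52.8%).

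**Figure D1:**
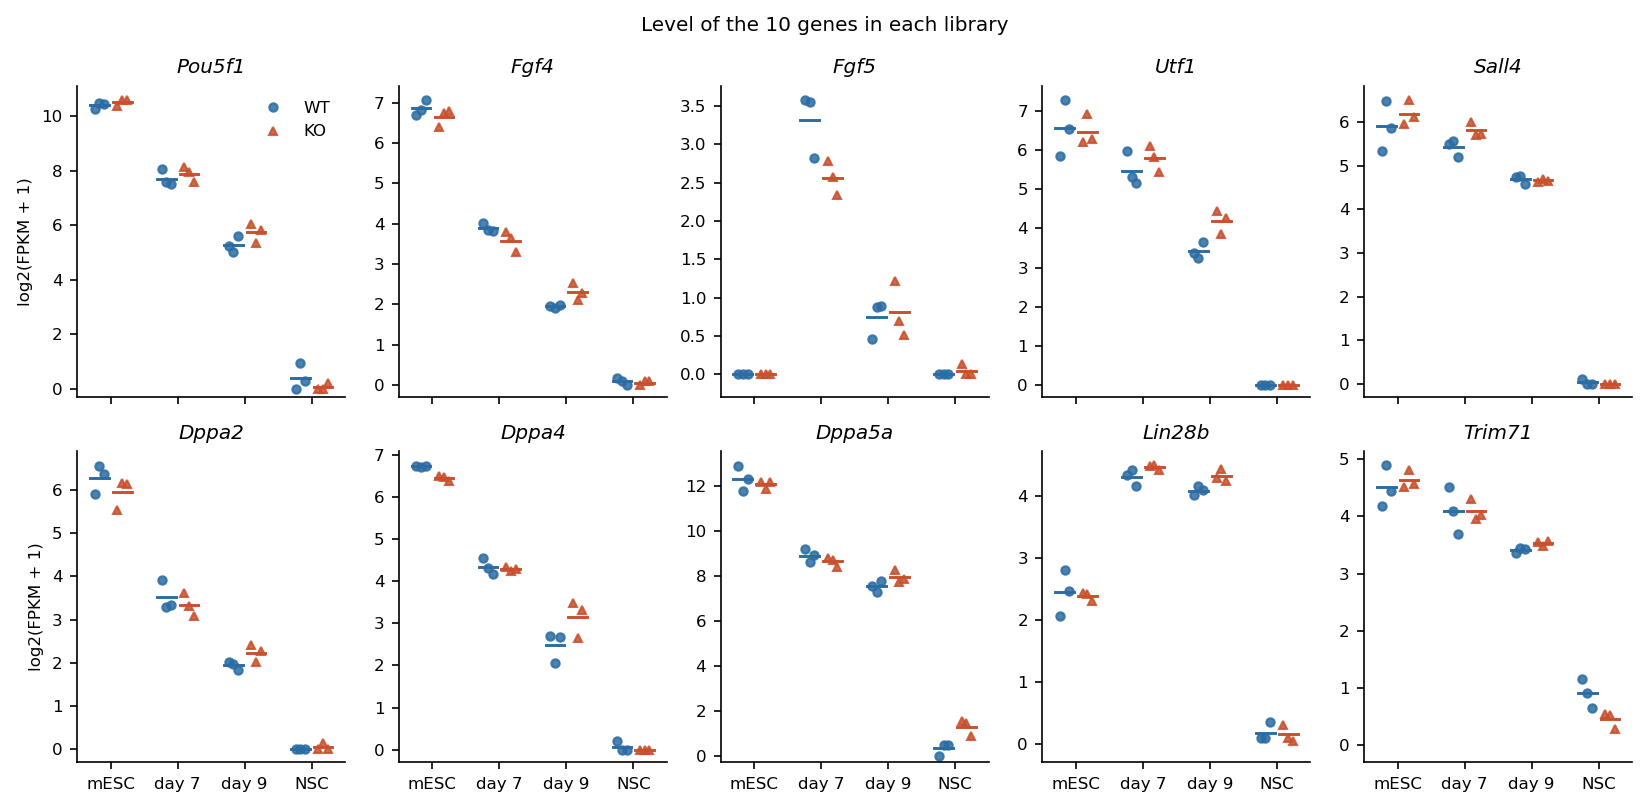
Level of each of the 10 genes as log2(FPKM + 1) in every library (y axis, a separate scale for each gene) at the 4 stages (x axis), with WT as blue circles, KO as red triangles and a short line at the mean of each group of 3. Lin28b and Fgf5 peak at day 7, the other genes are highest in mESCs, and all lie near 0 in NSCs.

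Pou5f1 lies at chr17:35642977-35647722 on the + strand (mm9). Its level in WT mESCs was 1240, 1450 and 1380 FPKM, and in WT day 7 cells it was 264, 189 and 181 FPKM. By day 9 it had reached 36.4, 31.5 and 47.9 FPKM, and the NSC libraries stood at 0, 0.931 and 0.224 FPKM. Each stage lay wholly below the one before, and the day 7 mean was 15.5% of the mESC mean and the day 9 mean 2.84%. The log2 difference from WT mESCs was -2.70 ± 0.21 (SE) at day 7 (limma, adjusted p = 6.48e-10) and -5.12 ± 0.21 at day 9 (limma, adjusted p = 8.43e-15). KO mESCs held 1320, 1530 and 1530 FPKM, and KO day 7 cells 284, 248 and 190 FPKM. KO day 9 cells held 65.2, 39.8 and 55.5 FPKM and KO NSCs 0, 0 and 0.156 FPKM, so here too no stage overlapped another. Processed pseudogenes of Pou5f1 are nearly identical to it, and how reads shared with them were assigned is not given in the sources used here.

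Promoter sequences from RefSeq (GRCm38.p6) were available for 6 of the 10 genes, and Sall4, Dppa2, Dppa4 and Dppa5a had no entry. The 250 bases before the first start of Pou5f1, chr17:35505782-35506031 on the + strand, are shown because OCT4, its product, is the factor at the centre of the circuit. Capitals mark a GC box (GGGCGG or its reverse complement CCGCCC), the element bound by Sp1-type factors, and a CCAAT box (CCAAT or ATTGG).

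Pou5f1: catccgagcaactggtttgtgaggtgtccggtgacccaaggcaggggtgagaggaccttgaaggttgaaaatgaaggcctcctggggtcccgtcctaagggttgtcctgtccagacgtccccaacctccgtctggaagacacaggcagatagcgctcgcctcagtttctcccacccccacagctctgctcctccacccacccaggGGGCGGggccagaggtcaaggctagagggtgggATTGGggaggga

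In this window the GC box begins 45 bases before the start and the CCAAT box 12 bases before it. Of all 32851 promoter windows of the same length, 32.7% held a GC box and 33.8% a CCAAT box on either strand. The window held 8 CpG dinucleotides, and the median over all windows was 6. The octamer ATGCAAAT, the classic site of POU factors, was searched on both strands and was in none of the 7 windows of the 6 genes. It was in 1.60% of all windows.

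Utf1 encodes a chromatin-associated protein of pluripotent cells and is a known target of OCT4 and SOX2 through an enhancer outside this window. The gene lies at chr7:147129755-147131011 on the + strand (mm9). Its promoter window, chr7:139943606-139943855 on the + strand (GRCm38.p6), is shown because it held the most GC boxes of the 7, with 4 in capitals, of which the first 2 share a base.

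Utf1: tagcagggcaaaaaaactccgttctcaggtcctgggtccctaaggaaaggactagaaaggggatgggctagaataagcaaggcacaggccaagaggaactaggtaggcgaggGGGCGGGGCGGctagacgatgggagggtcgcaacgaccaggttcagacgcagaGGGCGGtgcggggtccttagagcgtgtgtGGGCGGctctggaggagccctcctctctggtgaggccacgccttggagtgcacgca

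Utf1 fell later than Pou5f1. The WT libraries held 56.9, 153 and 91.9 FPKM in mESCs, 61.5, 38.5 and 34.4 at day 7, and 9.30, 8.42 and 11.6 at day 9, and all 3 NSC libraries were listed at 0. The mESC libraries were widely spread and the lowest of them lay below the highest day 7 library, so these groups overlapped. The day 7 mean was 44.6% of the mESC mean, a log2 difference of -1.08 ± 0.27 (limma, adjusted p = 0.00188). In KO cells the values were 72.6, 119 and 77.2 FPKM in mESCs, 67.3, 55.8 and 42.0 at day 7, and 20.6, 13.4 and 18.1 at day 9, with every NSC library listed at 0. There the day 7 mean was 61.3% of the mESC mean and the difference was -0.68 ± 0.27 (limma, adjusted p = 0.0346), a call that was lost when libraries were scaled to the same sum of FPKM (limma, adjusted p = 0.176) and without KO mESC replicate 2 or KO day 7 replicate 2 or 3.

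Sall4, a zinc-finger partner of OCT4 in mESCs, lies at chr2:168573832-168592701 on the - strand (mm9) and declined least of the transcription factors. Its WT values were 39.7, 89.1 and 57.5 FPKM in mESCs, 44.5, 46.2 and 35.8 at day 7, and 25.7, 26.3 and 23.0 at day 9. The mESC and day 7 libraries overlapped, while the day 9 libraries lay below both groups. Its day 9 mean was still 40.2% of the mESC mean, beside the 2.84% of Pou5f1. The log2 difference from WT mESCs was -0.48 ± 0.19 at day 7 (limma, adjusted p = 0.0323) and -1.21 ± 0.19 at day 9 (limma, adjusted p = 6.53e-06). The day 7 call was lost with scaling to the same sum (limma, adjusted p = 0.324), with 0.1 FPKM added in place of 1 (limma, adjusted p = 0.0723) and in a fit of the compared groups alone (limma, adjusted p = 0.149). It was lost too without WT day 7 replicate 3, WT mESC replicate 3 or WT mESC replicate 2, the last of which moved the difference to -0.19. KO cells held 60.9, 89.6 and 68.3 FPKM in mESCs, 63.3, 50.8 and 52.1 at day 7, and 23.8, 24.9 and 24.3 at day 9, a drop of -1.53 ± 0.19 by day 9 (limma, adjusted p = 2.44e-07). In NSCs only 1 of 6 libraries was above 0, at 0.0759 FPKM.

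Dppa2 and Dppa4 encode SAP-domain proteins that work as a pair on chromatin, and their genes are neighbours. Dppa4 lies at chr16:48283848-48294405 and Dppa2 at chr16:48310387-48319626, both on the + strand (mm9) and 16.0 kb apart. Dppa4 was 106, 104 and 105 FPKM in WT mESCs, the tightest group of any member above 1 FPKM, with a lowest library at 98.8% of the mean and a highest at 101%. Its WT values then were 22.3, 18.7 and 16.9 FPKM at day 7 and 5.53, 3.16 and 5.36 at day 9. The 3 stages did not overlap, and the means were 18.4% and 4.47% of the mESC mean. Dppa2 was 58.6, 93.2 and 81.1 FPKM in WT mESCs, 14.1, 8.74 and 9.10 at day 7, and 3.05, 2.92 and 2.57 at day 9. Its means were thus 13.7% and 3.67% of that in mESCs, close to those of its neighbour. On the log2 scale the fall by day 9 was -4.25 ± 0.17 for Dppa4 (limma, adjusted p = 3.89e-15) and -4.33 ± 0.19 for Dppa2 (limma, adjusted p = 1.62e-14). In KO cells Dppa4 was 89.8, 88.2 and 82.7 FPKM in mESCs, 19.2, 18.0 and 18.4 at day 7 and 10.1, 5.27 and 8.95 at day 9. Dppa2 in KO cells was 45.5, 69.8 and 69.0 FPKM, then 11.2, 8.97 and 7.52, and then 4.33, 3.03 and 3.80. Each gene was above 0 in 1 of the 6 NSC libraries, Dppa4 at 0.162 FPKM in a WT library and Dppa2 at 0.108 FPKM in a KO library.

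The FGF ligands took opposite courses from mESCs to day 7, and both fell from day 7 to day 9. Fgf4 lies at chr7:152047291-152051148 and Fgf5 at chr5:98683203-98706049, both on the + strand (mm9). Their promoter windows are shown as the most CpG-rich of the 7, with 21 CpG dinucleotides in that of Fgf4 (chr7:144861136-144861385, + strand, GRCm38.p6) and 24 in that of Fgf5 (chr5:98253934-98254183, + strand, GRCm38.p6). More CpG than in 83.7% of all windows was thus found for Fgf4 and more than in 88.0% for Fgf5. Capitals again mark GC boxes, 2 in Fgf4 and 1 on the reverse strand in Fgf5, and a CCAAT box on the reverse strand in Fgf4.

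Fgf4: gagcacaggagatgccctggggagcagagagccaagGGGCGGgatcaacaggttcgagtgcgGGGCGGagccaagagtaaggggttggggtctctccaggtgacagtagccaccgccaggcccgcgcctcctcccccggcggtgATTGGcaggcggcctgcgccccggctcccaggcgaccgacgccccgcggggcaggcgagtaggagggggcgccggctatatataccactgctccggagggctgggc
Fgf5: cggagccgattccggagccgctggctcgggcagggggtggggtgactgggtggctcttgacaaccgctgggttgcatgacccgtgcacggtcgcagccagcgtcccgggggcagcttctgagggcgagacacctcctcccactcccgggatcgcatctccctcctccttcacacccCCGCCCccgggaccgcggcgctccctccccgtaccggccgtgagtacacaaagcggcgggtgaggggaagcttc

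Fgf4 was 103, 112 and 133 FPKM in WT mESCs, 15.2, 13.4 and 13.2 at day 7, and 2.91, 2.73 and 2.97 at day 9. No stage overlapped another, and the means at the later stages were 12.0% and 2.47% of that in mESCs. The differences from mESCs were -2.96 ± 0.14 at day 7 (limma, adjusted p = 1.67e-13) and -4.91 ± 0.14 at day 9 (limma, adjusted p = 4.85e-17). KO cells held 83.6, 107 and 111 FPKM in mESCs, 13.0, 11.5 and 8.80 at day 7, and 4.82, 3.29 and 3.85 at day 9. In NSCs the 6 libraries lay between 0 and 0.134 FPKM.

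Fgf5 was listed at 0 in all 6 mESC libraries of both genotypes. At day 7 it was 11, 10.8 and 6.05 FPKM in WT cells and 5.91, 4.97 and 4.06 in KO cells. By day 9 it was down to 0.373, 0.839 and 0.854 FPKM in WT cells and 1.33, 0.611 and 0.423 in KO cells, and in NSCs only 1 KO library was above 0, at 0.0910 FPKM. Every day 7 library thus lay above every library of the other stages. The fitted difference from mESCs at day 7 was 3.32 ± 0.20 in WT cells (limma, adjusted p = 5.85e-12) and 2.57 ± 0.20 in KO cells (limma, adjusted p = 2.61e-10). With mESCs at 0 these values depend on the added 1 FPKM and set no bound on the fold. From day 7 to day 9 the fall was -2.58 ± 0.20 in WT cells (limma, adjusted p = 1.84e-09) and -1.76 ± 0.20 in KO cells (limma, adjusted p = 7.95e-07).

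Lin28b and Trim71 act on RNA. LIN28B blocks the maturation of let-7 microRNAs, and TRIM71 is an RNA-binding ubiquitin ligase whose homologue in worms, lin-41, was among the earliest let-7 targets described. Of the let-7 family, the 9 mature mouse sequences let-7a to let-7g, let-7i and miR-98 were taken from RefSeq. They all share the seed GAGGUAG (bases 2 to 8, in capitals), as 3 examples show.

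mmu-let-7a-5p: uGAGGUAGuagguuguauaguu
mmu-let-7g-5p: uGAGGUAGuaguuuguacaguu
mmu-miR-98-5p: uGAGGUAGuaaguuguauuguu

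The matching letters CTACCTC were searched on the transcript strand in the annotated 3′ UTRs of the 10 genes (GENCODE vM1, mm9). Lin28b had 4 matches in 4445 bases, Trim71 had 2 in 1370, Fgf4 had 1 in 2302 and Sall4 had 1 in 1697. Pou5f1, Fgf5, Utf1, Dppa2, Dppa4 and Dppa5a had none. Over 20007 genes with an annotated 3′ UTR, 8.80% had at least 1 match, 1.01% at least 2 and 0.130% at least 3. The shares were higher for longer 3′ UTRs, at 15.2%, 1.91% and 0.234% of the 6824 genes with one of 1300 to 4500 bases, a range that takes in the 4 genes with matches. The matches follow with their neighbouring bases, each seed match in capitals, because they are the letters a let-7 seed can pair with.

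Lin28b chr10:45100828-45100850, - strand: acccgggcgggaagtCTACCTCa
Lin28b chr10:45098454-45098476, - strand: tatacttgttagtaaCTACCTCt
Lin28b chr10:45098282-45098304, - strand: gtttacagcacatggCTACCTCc
Lin28b chr10:45096866-45096888, - strand: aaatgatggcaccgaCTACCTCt
Trim71 chr9:114421590-114421612, - strand: aacattgcctaagtcCTACCTCa
Trim71 chr9:114421494-114421516, - strand: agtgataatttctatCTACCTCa
Fgf4 chr7:152049764-152049786, + strand: gaattctatccccatCTACCTCa
Sall4 chr2:168574440-168574462, - strand: agggctttaatttatCTACCTCa

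An A follows the seed match in both sites of Trim71, in those of Fgf4 and Sall4 and in the first of Lin28b. A match is a description of the sequence only, and mature let-7 was not measured in these poly(A) libraries.

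Lin28b lies at chr10:45096425-45190007 on the - strand (mm9). It was 3.17, 5.99 and 4.57 FPKM in WT mESCs, 19.3, 20.5 and 17.0 at day 7, and 15.2, 16.9 and 16.1 at day 9. Both later groups lay wholly above the mESCs, at 414% and 350% of the mESC mean. The difference from mESCs was 1.87 ± 0.14 at day 7 (limma, adjusted p = 3.24e-10) and 1.64 ± 0.14 at day 9 (limma, adjusted p = 1.26e-09). The difference between day 9 and day 7, -0.22 ± 0.14, was not called (limma, adjusted p = 0.239), although those libraries did not overlap (54.2% of tested genes did not). In KO cells Lin28b was 4.40, 4.35 and 3.94 FPKM in mESCs, 21.4, 21.7 and 20.4 at day 7, and 18.6, 20.7 and 18.0 at day 9. In NSCs its means were 0.138 FPKM in WT and 0.116 FPKM in KO cells, the latter 2.74% of the mESC mean.

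Trim71 lies at chr9:114420391-114473487 on the - strand (mm9) and declined slowly. It was 17.2, 29.0 and 20.9 FPKM in WT mESCs, 21.9, 16.0 and 11.9 at day 7, and 9.27, 9.98 and 9.73 at day 9. The mESC and day 7 libraries overlapped, and the difference of -0.42 ± 0.19 was not called (limma, adjusted p = 0.0571). By day 9 it was 43.2% of the mESC mean (limma, -1.10 ± 0.19, adjusted p = 1.78e-05). In KO cells the values were 21.9, 27.1 and 22.7 FPKM in mESCs, 18.8, 14.6 and 15.2 at day 7, and 10.8, 10.2 and 10.9 at day 9. There the day 7 difference of -0.54 ± 0.19 was called (limma, adjusted p = 0.0160), but not after scaling to the same sum (limma, adjusted p = 0.194), with 0.1 FPKM added (limma, adjusted p = 0.0588) or without KO mESC replicate 2 or KO day 7 replicate 2 or 3. In WT NSCs Trim71 had the highest mean of the 10 genes, at 1.22, 0.895 and 0.566 FPKM, but it overlapped Pou5f1, which was the higher of the pair in replicate 2.

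Dppa5a, which encodes a KH-domain RNA-binding protein of pluripotent cells, was the most abundant of the 10 genes in mESCs and in the embryoid bodies. It lies at chr9:78214861-78216006 on the - strand (mm9), and near-identical copies of the gene exist, so its estimate is uncertain in that respect. Its level was 7740, 3530 and 5120 FPKM in WT mESCs, 587, 393 and 488 at day 7, and 191, 158 and 219 at day 9. These stages did not overlap, and Dppa5a kept 8.95% of its mESC mean at day 7, the smallest share of the 9 genes expressed in mESCs. The difference was -3.42 ± 0.24 at day 7 (limma, adjusted p = 1.22e-10) and -4.78 ± 0.24 at day 9 (limma, adjusted p = 2.27e-13). In KO cells it was 4700, 3740 and 4720 FPKM in mESCs, 453, 427 and 343 at day 7, and 307, 215 and 231 at day 9.

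**Figure D2:**
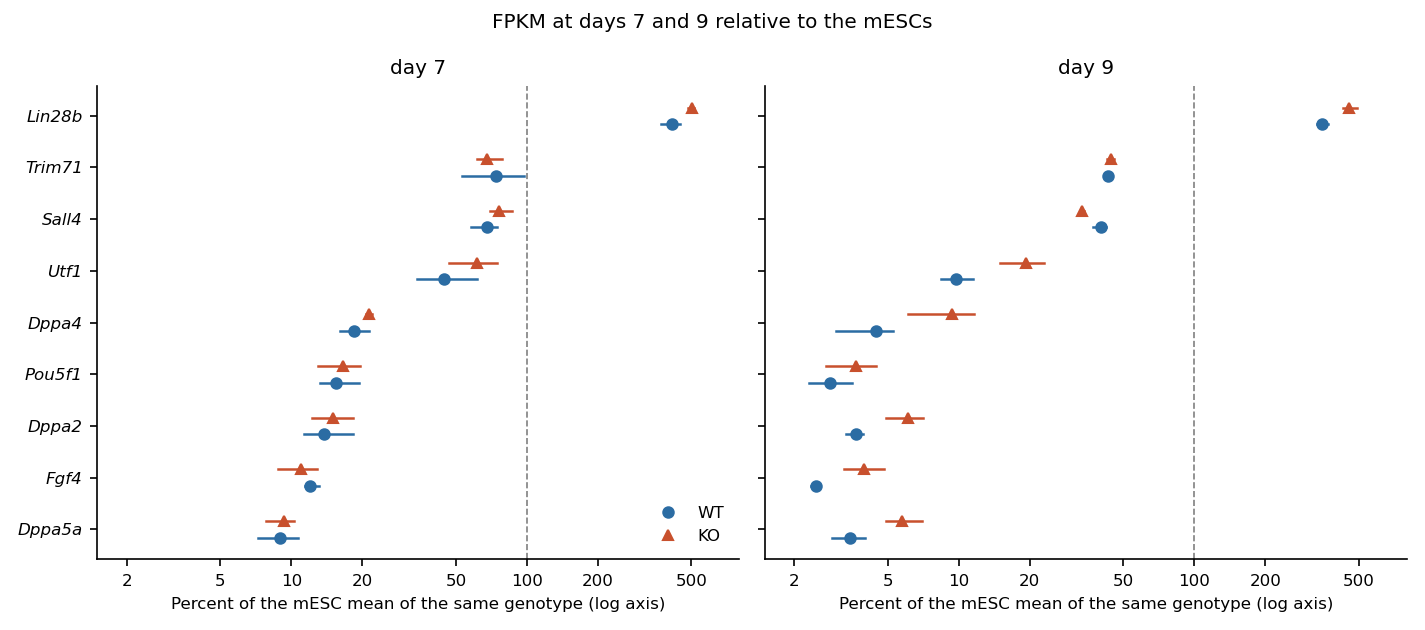
Mean FPKM at day 7 (left) and day 9 (right) as a percent of the mESC mean of the same genotype (x axis, log scale) for the 9 genes above 0 in mESCs (y axis), with bars from the lowest to the highest of 3 libraries, WT as blue circles and KO as red triangles. Lin28b lies above 100% (dashed line) at both days, Trim71 and Sall4 keep between 33.4% and 75.9%, and Pou5f1, Fgf4, Dppa2, Dppa4 and Dppa5a lie below 10% at day 9.

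The order of the levels changed with the stage. In WT mESCs it ran from Dppa5a (mean 5460 FPKM) and Pou5f1 (1360) through Fgf4 (116), Dppa4 (105), Utf1 (101), Dppa2 (77.6) and Sall4 (62.1) to Trim71 (22.4) and Lin28b (4.58), with Fgf5 at 0. Neighbours from Fgf4 to Sall4 overlapped, and the others did not. At WT day 9 Dppa5a (189 FPKM) and Pou5f1 (38.6) still led, followed by Sall4 (25.0) and Lin28b (16.0), none of which overlapped its neighbour. Utf1 (9.76) and Trim71 (9.66) were level there, as were Fgf4 (2.87) and Dppa2 (2.85). Lin28b had thus moved from the ninth place to the fourth.

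Some of the spread within groups was shared between genes. Among the 9 genes above 1 FPKM in every mESC library, WT mESC replicate 1 was the lowest for 7 and replicate 2 the highest for 6, and in KO mESCs replicate 1 was the lowest for 6 and replicate 2 the highest for 5. At day 7, replicate 1 was the highest library for 8 of the 10 genes in WT and for 9 in KO cells. KO day 9 replicate 2 was the lowest of its group for 7 of 9 genes. Several of these libraries stood apart in markers of other cell types. The 6 mesoderm and primitive streak markers summed to 62.8, 157 and 160 FPKM in WT day 7 replicates 1 to 3 and to 7.75, 17.4 and 5.64 in those of KO day 9, and the 6 endoderm markers to 20.3, 51.5 and 48.5 and to 3.68, 11.6 and 2.75 FPKM. WT day 7 replicate 1 was thus the lowest of its group for both sums and KO day 9 replicate 2 the highest. In KO day 7 replicate 1 the sums were 3.33 FPKM, the lowest of its group, and 0.967 FPKM, in the middle. Replicate 1 of the mESCs was the highest of its group for both sums. The mesoderm sum there was 16.5 FPKM in WT and 21.5 in KO cells, and the endoderm sum 2.91 and 2.42 FPKM. Their part in the spread of the 10 genes was not tested.

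Comparing KO with WT cells asked whether the loss of SmcHD1 altered the course of these genes. In mESCs, none of the 10 was called (0.529% of tested genes were, and limma gave 0 of the 10 at an unadjusted p under 0.05, beside 7.66% of tested genes). The differences on the log2 scale lay between -0.33 for Dppa2 and 0.29 for Sall4, with a median of -0.08 against 0.00 over all genes. Libraries of the genotypes were apart only for Dppa4 (11% of tested genes were), at 106, 104 and 105 FPKM in WT against 89.8, 88.2 and 82.7 in KO cells. That difference was -0.27 ± 0.17 (limma, adjusted p = 0.808), with an interval of 2 SE from -0.61 to 0.07. Of 28 tested markers of other cell types, Cdx2, a trophoblast factor, was the only one called in mESCs, at 6.92, 8.75 and 5.46 FPKM in WT and 26.9, 15.8 and 14.9 in KO cells (limma, 1.3 ± 0.2, adjusted p = 0.00149). The call was lost with 0.1 FPKM added and in a fit of the compared groups alone (limma, adjusted p = 0.255 and 0.3). The 5 trophoblast markers together summed to 7.40 to 9.86 FPKM in WT and 15.7 to 28.1 in KO mESCs, with none at 0 in either group.

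At day 7, Fgf5 was lower in KO cells and was the only gene of the 10 called (3.68% of tested genes were called, and 2.50% were lower). WT cells held 11, 10.8 and 6.05 FPKM and KO cells 5.91, 4.97 and 4.06 FPKM, and the groups did not overlap. The difference was -0.75 ± 0.20 (limma, adjusted p = 0.0317; 0.00391 to 0.386 over the alternatives), and the exact permutation test gave p = 0.1, the smallest that 3 against 3 allows. The call was lost with 0.1 FPKM added in place of 1 (limma, adjusted p = 0.386), in a fit of the compared groups alone (limma, adjusted p = 0.101), and without WT replicate 1, WT replicate 2, KO replicate 2 or KO replicate 3. Tested against the difference in mESCs, where both genotypes were at 0, it was not called (limma, adjusted p = 0.269). Groups were apart for Fgf4 and Sall4 too (24% of tested genes). Fgf4 was 15.2, 13.4 and 13.2 FPKM in WT and 13.0, 11.5 and 8.80 in KO cells, and its difference of -0.32 ± 0.14 was not called (limma, adjusted p = 0.296). Sall4 was 44.5, 46.2 and 35.8 FPKM in WT and 63.3, 50.8 and 52.1 in KO cells, and 0.39 ± 0.19 was not called (limma, adjusted p = 0.365). The day 7 groups also differed in markers of other cell types. The 6 markers of mesoderm and primitive streak summed to 62.8 to 160 FPKM in WT and 3.33 to 5.20 in KO libraries, with Mesp1 at 0 in KO cells, and all 3 tested, T, Eomes and Meox1, were lower. The 6 endoderm markers summed to 20.3 to 51.5 FPKM in WT and 0.496 to 1.68 in KO libraries, and both tested, Sox17 and Foxa2, were lower. Afp was at 0 in WT cells. In WT cells most of the mesoderm sum was T, at 52.1, 132 and 124 FPKM. Most of the WT endoderm sum was Foxa2, at 15.1, 37.8 and 35.9 FPKM. Of 8 neural markers, which summed to 336 to 392 FPKM in WT and 261 to 362 in KO libraries, Sox1, Olig2 and Vim were called (1 higher and 2 lower), and of 3 tested trophoblast markers Cdx2 was lower. Their part in the Fgf5 difference was not tested.

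At day 9, 9 of the 10 differences were above 0, with a median of 0.32 against 0.00 over all tested genes, but only Dppa4 was called (6.68% of tested genes were called, and 2.58% were higher). At an unadjusted p under 0.05 there were 4, beside 17.3% of tested genes. Dppa4 was 5.53, 3.16 and 5.36 FPKM in WT and 10.1, 5.27 and 8.95 in KO cells, so KO replicate 2 lay within the WT range and the groups overlapped. The difference was 0.67 ± 0.17 (limma, adjusted p = 0.0185; 0.000567 to 0.177 over the alternatives), and the exact permutation test gave p = 0.3. The call was lost with 0.1 FPKM added (limma, adjusted p = 0.153), with scaling to the same sum (limma, adjusted p = 0.0564), in a fit of the compared groups alone (limma, adjusted p = 0.137), and without WT replicate 2, KO replicate 1 or KO replicate 3. Without KO replicate 2 the difference was 0.91 (limma, adjusted p = 0.000567).

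For 4 genes the day 9 genotypes did not overlap (32.3% of tested genes), each time with KO higher, and none of them was called. Utf1 was 9.30, 8.42 and 11.6 FPKM in WT and 20.6, 13.4 and 18.1 in KO cells, a difference of 0.76 ± 0.27 (limma, adjusted p = 0.113). It was the largest of the 10 differences at day 9, and it passed only in a fit of the compared groups alone (limma, adjusted p = 0.0217). Fgf4 was 2.91, 2.73 and 2.97 FPKM in WT and 4.82, 3.29 and 3.85 in KO cells, at 0.36 ± 0.14 (limma, adjusted p = 0.168). Lin28b, at 0.24 ± 0.14 (limma, adjusted p = 0.429), and Trim71, at 0.12 ± 0.19 (limma, adjusted p = 0.835), were the others. Pou5f1 and Dppa5a overlapped between the genotypes at 0.45 ± 0.21 (limma, adjusted p = 0.279) and 0.40 ± 0.24 (limma, adjusted p = 0.429). Sall4 was level, at 25.7, 26.3 and 23.0 FPKM in WT and 23.8, 24.9 and 24.3 in KO cells, with an interval of 2 SE from -0.41 to 0.34.

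Other cell types differed at day 9 as well. The endoderm markers summed to 27.4 to 51.1 FPKM in WT and 2.75 to 11.6 in KO libraries (1 of 2 tested was lower, Foxa2; Afp at 0 in KO cells). Those of mesoderm summed to 17.0 to 44.8 and 5.64 to 17.4 FPKM (2 of 3 lower, T and Meox1; Mixl1 at 0 in WT and Mesp1 at 0 in KO cells), and 5 fibroblast markers to 18.8 to 54.0 and 3.96 to 5.35 FPKM (3 of 4 tested were lower). The neural markers summed to 1340 to 1650 and 1640 to 1870 FPKM, with 2 of 8 higher and 1 lower, and Tfap2a was higher among 3 tested trophoblast markers. Their part in the Dppa4 difference was not tested. Primordial germ cells also express many of the 10 genes, and their 8 markers summed to 34.9 to 43.7 FPKM in WT and 35 to 53.4 in KO libraries, with none of the 8 called.

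In NSCs, Dppa5a was higher in KO cells and was the only gene of the 10 called (6.02% of tested genes were called, and 2.54% were higher). It was 0, 0.409 and 0.404 FPKM in WT and 1.92, 1.71 and 0.820 in KO cells, without overlap. The KO mean was 0.0338% of that in KO mESCs, so the level was a trace beside that of the pluripotent cells. The difference was 0.95 ± 0.24 (limma, adjusted p = 0.0182; 0.00400 to 0.17 over the alternatives), or 2.34 with 0.1 FPKM added in place of 1 (limma, adjusted p = 0.00400), and the exact permutation p was 0.1, the smallest possible. The call was lost in a fit of the compared groups alone (limma, adjusted p = 0.17) and without WT replicate 1, KO replicate 1 or KO replicate 2. Trim71 was apart in the other direction (16.7% of tested genes did not overlap), at 1.22, 0.895 and 0.566 FPKM in WT and 0.461, 0.45 and 0.215 in KO cells. Its difference of -0.45 ± 0.19 was not called (limma, adjusted p = 0.180), but was with 0.1 FPKM added (limma, -1.06, adjusted p = 0.0135). The neural markers summed to 5300 to 6760 FPKM in WT and 3780 to 4650 in KO NSCs, with 1 of 8 lower, Vim. Trophoblast markers summed to 0.465 to 0.531 FPKM in WT and 4.72 to 7.47 in KO NSCs, where Tfap2a was higher and Cdx2, Elf5 and Krt7 were at 0. Of the primordial germ cell markers Kit was lower. Endoderm markers summed to 0 to 0.173 FPKM in WT and 1.59 to 4.00 in KO NSCs, with Sox17, Gata6 and Afp at 0 in KO cells. Their part in the Dppa5a difference was not tested.

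**Figure D3:**
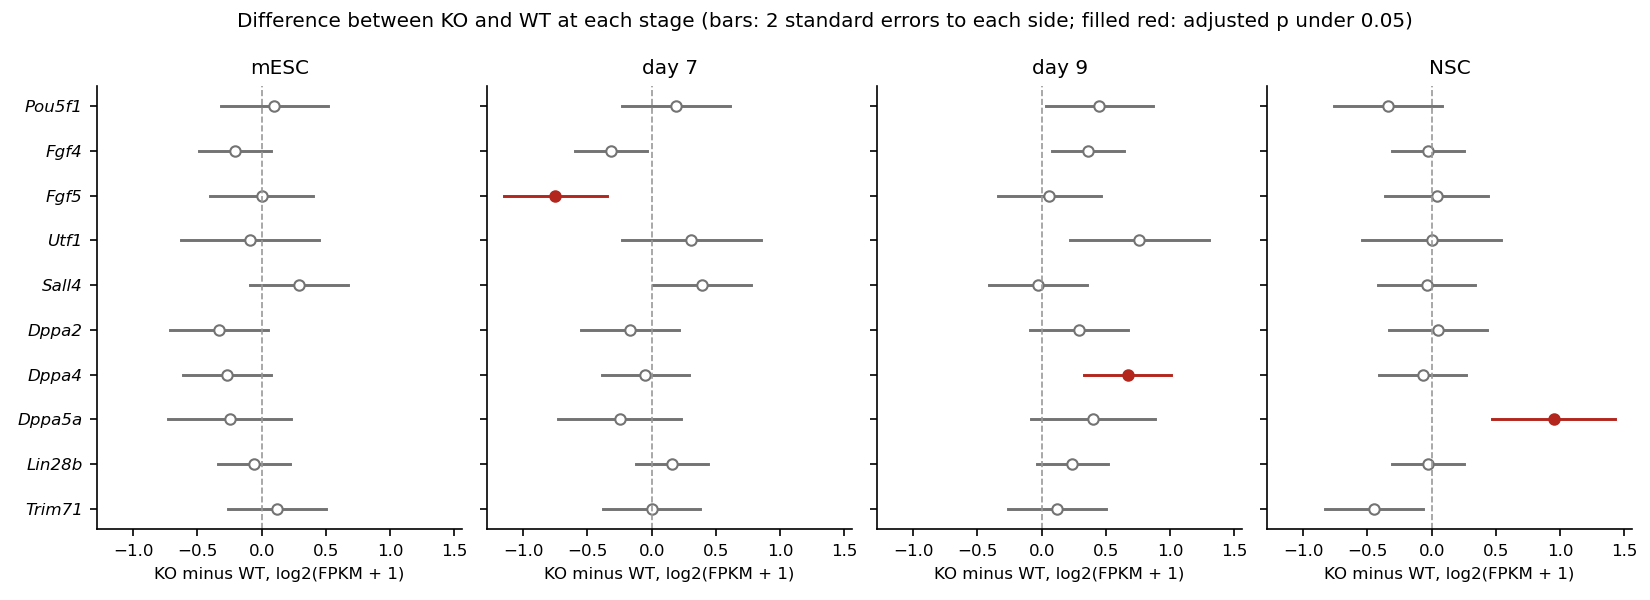
Difference between KO and WT in log2(FPKM + 1) (x axis) for each of the 10 genes (y axis) at the 4 stages, as points with bars of 2 standard errors to each side and with called differences filled in red. Fgf5 at day 7 (-0.75), Dppa4 at day 9 (0.67) and Dppa5a in NSCs (0.95) are called, and at day 9 every point but that of Sall4 lies above 0.

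Whether the difference between KO and WT changed from mESCs to a later stage was tested as an interaction. At day 9, Dppa4 was called (2.68% of tested genes were, and 1.32% in that direction), with KO cells 0.27 lower on the log2 scale in mESCs and 0.67 higher at day 9. The change was 0.94 ± 0.24 (limma, adjusted p = 0.0386; 0.00179 to 0.276 over the alternatives). It was lost without any of the 6 mESC libraries, without WT day 9 replicate 2 and without KO day 9 replicate 1 or 3, and also with 0.1 FPKM added (limma, adjusted p = 0.276), with scaling to the same sum (limma, adjusted p = 0.0914) and in a fit of the compared groups alone (limma, adjusted p = 0.114). Fgf4, Utf1 and Dppa2 changed by 0.56 ± 0.20, 0.85 ± 0.39 and 0.62 ± 0.27, none of which was called (limma, adjusted p = 0.183, 0.364 and 0.331), and 4 of the 10 had an unadjusted p under 0.05, as 12.4% of tested genes did. At day 7 none of the 10 was called (1.68% of tested genes were), and 1 had an unadjusted p under 0.05, as 9.84% of tested genes did. In NSCs none was called either (2.26% of tested genes were), and 2 had an unadjusted p under 0.05, as 14% of tested genes did. Dppa5a came closest there, at 1.21 ± 0.34 (limma, adjusted p = 0.0668), and it passed with the replicate number as a block (limma, adjusted p = 0.0457), with scaling to the same sum (limma, 1.32, adjusted p = 0.0440), with 0.1 FPKM added (limma, 2.60, adjusted p = 0.0429) and without KO NSC replicate 3 or WT mESC replicate 2. In a fit of the compared groups alone it did not (limma, adjusted p = 0.253).

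Related genes gave the setting for these values. Of 21 other pluripotency regulators, 20 were lower at WT day 7 than in WT mESCs (30.2% of tested genes were), 20 at day 9 (35.1%) and 20 in NSCs (38.3%), with none higher, and the list's median difference was -2.86, -4.23 and -6.05 on the log2 scale. Nanog, whose entry is shared with Nanogpd, went from a mean of 856 to 0.479 FPKM between WT mESCs and NSCs (limma, -9.20 ± 0.26, adjusted p = 2.07e-17), and Tdh, a threonine dehydrogenase of mESCs, from 480 to 0.0754 FPKM (limma, -8.80 ± 0.17, adjusted p = 5.06e-20). Between KO and WT cells none of the 21 was called in mESCs or at day 7. Tdh was higher in KO cells at day 9 (limma, 0.97 ± 0.17, adjusted p = 0.000536), and Sox2, which NSCs also express, was lower in KO NSCs (limma, -0.49 ± 0.13, adjusted p = 0.0308). The Tdh call was lost with 0.1 FPKM added (limma, adjusted p = 0.113). That of Sox2 was lost with scaling to the same sum (limma, adjusted p = 0.115), in a fit of the compared groups alone (limma, adjusted p = 0.427), and without WT replicate 2, WT replicate 3, KO replicate 1 or KO replicate 3. Tbx3 had the largest negative difference of the list, -0.88 ± 0.28 at day 9, and was not called (limma, adjusted p = 0.0616).

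Of the 17 formative and primed epiblast genes, 8 were higher at day 9 in KO cells (2.58% of tested genes were) and 1 lower (4.11%), with a median of 0.54 against 0.00 over all genes. The 8 were Otx2, Fgf15, Lefty1, Lefty2, Zic2, Zic5, Lef1 and Etv4. Pou3f1, Dnmt3a, Dnmt3b, Nodal, Sox11, Sox4, Grhl2 and Cdh2 were not called. Libraries scaled to the same sum gave 7 higher and 1 lower, 0.1 FPKM added gave 5 and 1, the compared groups alone gave 10 and 0, and leaving out single libraries gave 5 to 8 higher. Zic2 was 6.38, 5.71 and 4.2 FPKM in WT and 47.6, 29.1 and 46.5 in KO cells (limma, 2.69 ± 0.39, adjusted p = 0.000122). Zic5, its neighbour and relative, was higher by 2.42 ± 0.32 (limma, adjusted p = 2.55e-05). Otx2, a homeobox factor of the formative epiblast, was higher in KO cells by 1.79 ± 0.27 at day 7 (limma, adjusted p = 0.000187) and by 1.41 ± 0.27 at day 9 (limma, adjusted p = 0.00140), the latter lost with 0.1 FPKM added (limma, adjusted p = 0.101). Cldn6, a tight-junction gene, was lower in KO cells at day 7 (limma, -1.75 ± 0.36, adjusted p = 0.00587) and at day 9 (limma, -1.67 ± 0.36, adjusted p = 0.00586), calls lost in a fit of the compared groups alone (limma, adjusted p = 0.0534 and 0.0575) and without WT day 7 replicate 3 and WT day 9 replicate 2, respectively. Lefty2, an inhibitor of Nodal, was higher in KO cells at day 9 (limma, 1.17 ± 0.19, adjusted p = 0.000341), and from WT mESCs to NSCs it fell by 6.64 on the log2 scale, while Sox4 rose by 6.14. Sox11 was lower in KO NSCs (limma, -0.62 ± 0.17, adjusted p = 0.0308), but not in a fit of the compared groups alone, with 0.1 FPKM added or with scaling to the same sum (limma, adjusted p = 0.199, 0.143 and 0.0576), nor without WT replicate 1 or 3 or KO replicate 2 or 3. Of the 10 genes, Fgf5 is the usual marker of this state, and it was lower in KO cells at day 7 when Otx2 was higher. At day 9 Fgf5 was not called (limma, 0.06 ± 0.20, adjusted p = 0.943).

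**Figure D4:**
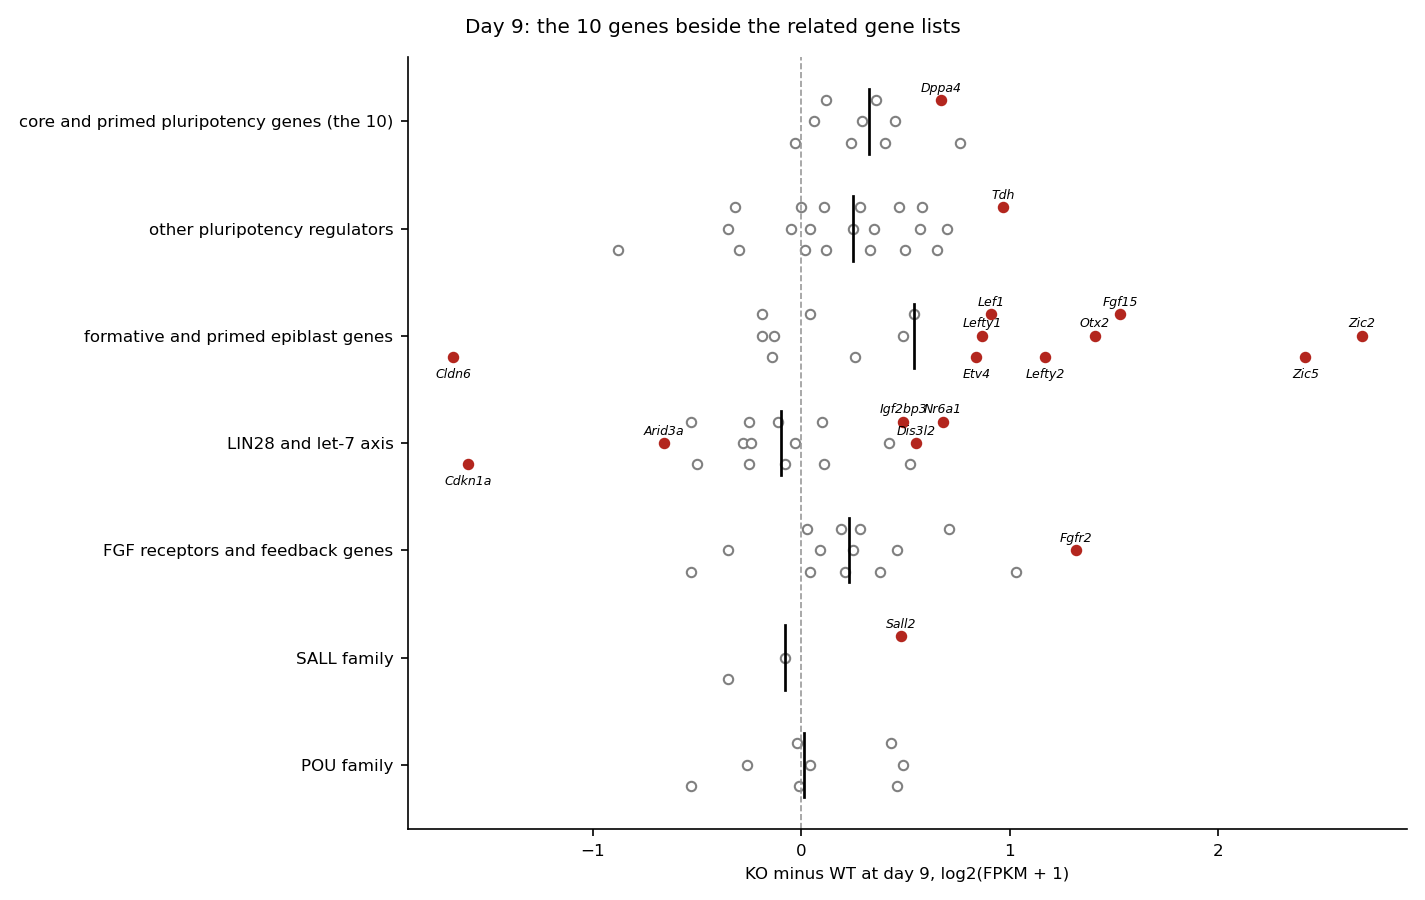
Difference between KO and WT at day 9 in log2(FPKM + 1) (x axis) for the 10 genes and the 6 related lists (y axis), each point a tested gene, filled red and named where called, with a vertical line at the median of each list. The 10 genes have a median of 0.32 and the formative and primed epiblast genes one of 0.54, with Zic2 at 2.69 and Cldn6 at -1.67.

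Around Lin28b and Trim71, 18 of 19 genes of the LIN28 and let-7 axis were tested. In WT cells 13 were higher than in mESCs at day 7 (29.1% of tested genes were) and 1 was lower (30.2%), with a median of 0.98. In NSCs 2 were higher (36.9%) and 9 lower (38.3%), with a median of -0.24, but libraries scaled to the same sum gave 8 higher and 7 lower there, with a median of 0.19. Lin28a, the paralogue of Lin28b, rose with it, from 29.0, 54.7 and 27.6 FPKM in WT mESCs to 253, 259 and 226 at day 7 (limma, 2.76 ± 0.19, adjusted p = 4.19e-11). It then fell to 55.4, 65.4 and 58.0 FPKM at day 9, when Lin28b held 15.2, 16.9 and 16.1. Igf2bp1, whose entry is shared with Mir3063, had the largest fall of the list in NSCs (limma, -5.21 ± 0.48, adjusted p = 1.48e-08). Between the genotypes, Igf2bp3 was higher in KO mESCs (limma, 0.51 ± 0.12, adjusted p = 0.0420) and Mycn lower in KO NSCs (limma, -1.29 ± 0.29, adjusted p = 0.00839). The first call held only without WT replicate 2 among the 6 libraries left out in turn, and it was lost with scaling to the same sum and in a fit of the compared groups alone (limma, adjusted p = 0.157 and 0.509). The second was lost in a fit of the compared groups alone (limma, adjusted p = 0.268) and without WT or KO replicate 3. At day 7, 1 gene of the axis was higher in KO cells (1.18% of tested genes were) and 3 lower (2.50%), against 3 and 4 in a fit of the compared groups alone and 1 and 1 with 0.1 FPKM added. At day 9, 3 were higher (2.58%) and 2 lower (4.11%), which became 1 and 3 with scaling to the same sum and 5 and 5 in a fit of the compared groups alone. The largest of these differences was that of Cdkn1a, a cell-cycle inhibitor, at -1.60 ± 0.22 at day 9 (limma, adjusted p = 4.68e-05).

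**Figure D5:**
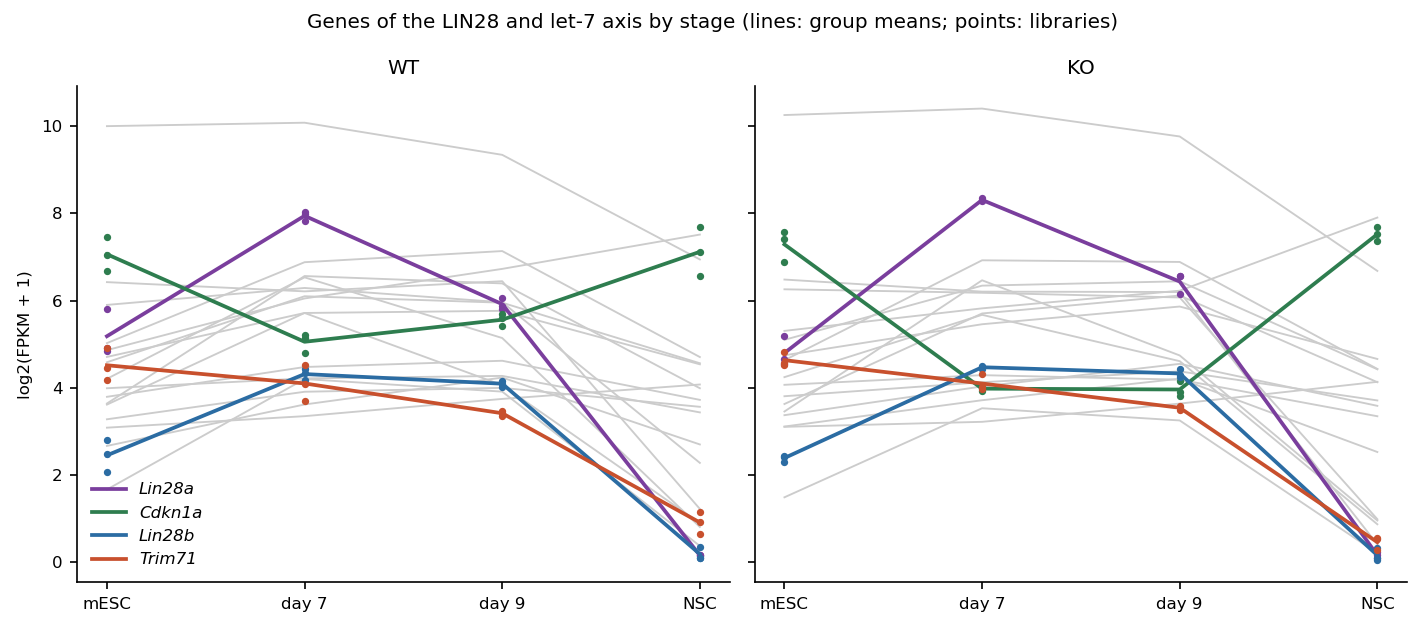
Group means of log2(FPKM + 1) (y axis, lines) at the 4 stages (x axis) for Lin28b, Trim71 and the tested genes of the LIN28 and let-7 axis in WT (left) and KO cells (right), with the libraries as points for the 4 coloured genes. Lin28a and Lin28b are highest at day 7 and near 0 in NSCs, the mean of Trim71 is lower at each stage than at the one before, and Cdkn1a is lowest in the embryoid bodies.

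Beside Fgf4 and Fgf5, 14 of 16 FGF receptor and feedback genes were tested. In WT cells 10 were higher than in mESCs at day 7 (29.1% of tested genes were) and 1 lower (30.2%), with a median of 1.36. In NSCs 10 were higher (36.9%) and 3 lower (38.3%), with a median of 1.90. Dusp6 and Spry4, inhibitors of the ERK pathway, rose the most in NSCs (limma, 3.64 ± 0.43, adjusted p = 3.69e-07, and 3.62 ± 0.36, adjusted p = 8.78e-09). The mESC medium held the MEK inhibitor and the NSC medium held FGF2, so stage and medium cannot be told apart. Fgfr2 was higher in KO cells at day 7 (limma, 0.73 ± 0.16, adjusted p = 0.0104) and at day 9 (limma, 1.32 ± 0.16, adjusted p = 1.33e-05), and no other gene of the list was called between the genotypes. The day 7 call was lost without WT replicate 2 or 3 or KO replicate 1. Fgf8, with the next largest difference, was 38.6, 35.2 and 17.9 FPKM in WT and 10.4, 14.7 and 14 in KO cells at day 7 and was not called (limma, -1.11 ± 0.34, adjusted p = 0.0770).

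Relatives of Sall4 and Pou5f1 were followed from mESCs to NSCs as well. Of 3 other SALL genes, Sall2 and Sall3 were higher in WT NSCs than in mESCs (limma, 4.35 ± 0.13, adjusted p = 7.14e-18, and 3.03 ± 0.25, adjusted p = 3.75e-10). Sall1 was not called there (limma, -0.45 ± 0.28, adjusted p = 0.154), and it was lower in KO NSCs than in KO mESCs (limma, -1.04 ± 0.28, adjusted p = 0.00209), though not with scaling to the same sum (limma, adjusted p = 0.0935). Sall2 was higher in KO cells at day 7 (limma, 0.71 ± 0.13, adjusted p = 0.00121) and day 9 (limma, 0.48 ± 0.13, adjusted p = 0.0206), and Sall1 was not called between the genotypes. The day 9 call was lost with 0.1 FPKM added and with scaling to the same sum (limma, adjusted p = 0.0607 and 0.152), and without replicate 2 or 3 of either genotype. Of 12 other POU genes 8 were tested, and 4 were higher in WT NSCs than in mESCs (36.9% of tested genes were) and 2 lower (38.3%), led by the neural factors Pou3f3 (limma, 5.54 ± 0.18, adjusted p = 4.30e-17) and Pou3f2 (limma, 3.15 ± 0.18, adjusted p = 4.21e-13). Pou4f2 was lower in KO NSCs (limma, -1.64 ± 0.42, adjusted p = 0.0223), though not in a fit of the compared groups alone or with 0.1 FPKM added (limma, adjusted p = 0.323 and 0.083), nor without WT replicate 3 or KO replicate 2 or 3, and Pou3f1 was not called between the genotypes.

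Over the 8 group means, the 8 members other than Fgf5 and Lin28b had similar patterns, with Pearson r between 0.842 and 0.999 in their 28 pairs. Fgf5 correlated with the others at 0.071 to 0.689 and Lin28b at 0.373 to 0.807. These are descriptions over 8 means from 2 cell lines, which share the 4 stages. Among all other tested genes, those most like each member were Zfp568 and Chchd10 for Pou5f1, Gpa33 and Bag4 for Fgf4, 1810029B16Rik and Nup133 for Utf1, Thoc6 and Slc2a3 for Sall4, AU018091 and Gpa33 for Dppa2, and Dnajc8 and Atf7ip2 for Dppa4. They were Akr1b8 and Gmnn for Dppa5a, Suv39h2 and Sox13 for Lin28b, and Rbpms and Whsc2 for Trim71, with r between 0.9943 and 0.9994 in these 18 cases. Fgf5 had the least close matches, Dhrs3 at 0.9847 and Pdgfrl at 0.9721.

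None of the 10 loci overlapped another entry of the table. The nearest entries were Tcf19 at 2.0 kb from Pou5f1, Kndc1 at 2.3 kb from Utf1, Atp9a at 6.5 kb from Sall4, Bves at 6.9 kb from Lin28b, Ooep at 8.7 kb from Dppa5a, Ccr4 at 14.7 kb from Trim71, Fgf3 at 18.0 kb from Fgf4 and 1700007G11Rik at 52.3 kb from Fgf5.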

How the data were processed

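The authors made stranded poly(A) RNA-seq libraries, trimmed the reads (Trim Galore 0.6.6), aligned them to mm9 (TopHat2 2.1.1), then left out mapped X-chromosome and ribosomal RNA reads and ran Cuffdiff to estimate expression. The deposited values are FPKM, of which 24 columns were used here and 12 were not. Read totals are not given in the sources used here.

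Genes outside X and Y with a mean of at least 1 FPKM and no failed estimate were compared with limma 3.58.1 (R 4.3.3, statmod 1.5.0; trend and robust settings, two-sided) on log2(FPKM + 1), with all 8 groups in 1 fit. Fold changes on this scale understate the change of low genes. Exact permutation tests of 3 against 3 cannot go below p = 0.1. Replicates are given as independent experiments of the same line, so p-values measure the spread between them. Same-numbered WT and KO libraries deviated together in mESCs (correlations 0.29, 0.44 and 0.14) and in NSCs (0.34, 0.18 and 0.24). At day 7 the correlations were 0.10, 0.08 and 0.04, and at day 9 they were 0.02, 0.03 and -0.11. Numbers may thus pair libraries in mESCs and NSCs, but no label gives a shared batch and the pairing was not tested. The main fit took up no pairing, and the replicate block has the same effect for all stages. Scaling to the same sum moved the median of all genes by up to 0.44 (log2, KO NSC against KO mESC), so stage differences are relative to it. The fit was also run on simulated data, but with larger changes and in genes of higher level than the 3 called between KO and WT. It therefore does not bear on those calls.

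The 10 genes and all lists were chosen with earlier results of these data known. Genes were named by rule: the 10 members, Smchd1, in each list the 2 genes with the largest difference between WT NSCs and WT mESCs and the 2 with the largest between KO and WT, any other listed gene called there if at most 3 were, the 2 genes most like each member and the nearest entries. The lists were other pluripotency regulators, formative and primed epiblast genes, the LIN28 and let-7 axis, FGF receptors and feedback genes, the SALL and POU families, and markers of 6 other cell types. The formative and primed epiblast genes were all named for day 9, outside the rule for named genes. Alternatives were 0.1 FPKM added, no filter, the same sum, the compared groups alone, a replicate block and each library left out.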

Additional observations from a re-analysis of the deposited data

Results flagged for a closer look

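The difference between KO and WT cells changed from mESCs to a later stage for 1 of the 10 genes, by the test of the interaction (limma, log2 scale). Among 79 tested genes of the related lists it changed for 3 at day 7, 7 at day 9 and 3 in NSCs, shares of 3.80%, 8.86% and 3.80% beside 1.68%, 2.68% and 2.26% of all tested genes. The counts include Nr6a1 at both days, Fgf15 at day 9 and Lef1 in NSCs, which the rule for named genes did not take in. Among 28 tested markers of other cell types it changed for 8, 7 and 4. Dppa4 changed by 0.94 from mESCs to day 9 (adjusted p = 0.0386 in limma). To day 9, Zic5 changed by 1.93 (limma, adjusted p = 0.0190), Cdkn1a by -1.83 (limma, adjusted p = 0.00130), Fgfr2 by 1.45 (limma, adjusted p = 0.000687), Fgf8 by 1.81 (limma, adjusted p = 0.0437) and Sall2 by 0.91 (limma, adjusted p = 0.00430). To day 7, Cdkn1a changed by -1.30 (limma, adjusted p = 0.0342) and Sall2 by 1.14 (limma, adjusted p = 0.00129). To NSCs, Mycn changed by -1.65 (limma, adjusted p = 0.0367) and Igf2bp3 by -0.65 (limma, adjusted p = 0.0380). Over the alternatives the adjusted p stayed under the threshold for Cdkn1a at day 9 (0.000725 to 0.00599), Fgfr2 (0.000599 to 0.00503) and Sall2 at day 7 (0.000475 to 0.0151) and at day 9 (0.00298 to 0.0496), and it passed above the threshold for Dppa4 (0.00179 to 0.276), Zic5 (0.00589 to 0.0749), Cdkn1a at day 7 (0.0155 to 0.109), Fgf8 (0.0224 to 0.144), Mycn (0.000582 to 0.261) and Igf2bp3 (0.0151 to 0.232).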

How the results depend on the processing

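The counts of the 10 genes called against mESCs and between day 7 and day 9 stayed within 1.5 times under each alternative: over all libraries left out in turn they were 8 to 10 at WT day 7, 10 at WT day 9, 9 in WT NSCs, 7 to 10 at KO day 7, 10 at KO day 9, 9 in KO NSCs, 8 to 9 for WT day 9 against day 7 and 7 to 9 for KO day 9 against day 7. The single calls between KO and WT were less steady. With the compared groups alone the count went from 1 to 0 at day 7, in NSCs and for the interaction at day 9. It stayed at 1 for KO against WT at day 9, but Dppa4 was lost (limma, adjusted p = 0.137) and Utf1 gained (limma, adjusted p = 0.0217). With 0.1 FPKM added the count was 0 at day 7, at day 9 and for the interaction at day 9, 2 in NSCs, and 1 for the interaction in NSCs. With scaling to the same sum it was 0 at day 9 and for the interaction at day 9, and 1 for the interaction in NSCs. Leaving out libraries gave 0 to 1 for KO against WT at day 7, at day 9 and in NSCs and for the interactions at day 9 and in NSCs, and 0 to 0 for KO against WT in mESCs and the interaction at day 7. The cause was not tested. With the replicate block the interaction in NSCs counted 1 (Dppa5a), and Trim71 was called at WT day 7 against mESCs (limma, -0.42, adjusted p = 0.0482). Same-numbered libraries did not deviate together in that comparison (correlations -0.05, 0.01 and 0.04). The block changed no other call among the 10. No filter on low values changed no call. No called difference changed its sign. Over the 10 genes, 15 comparisons and all alternatives, 1763 values kept their side of the threshold, 55 lost a call and 12 gained one.

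With 3 libraries a group and FPKM without read totals, a gene listed at 0 cannot be given a limit, and differences between KO and WT among the 10 genes of up to 0.76 on the log2 scale were left uncalled, while the smallest called was 0.67.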
